A study of Mus musculus with 16 samples.

Results

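The genes described here are 10 immediate early genes of the mouse left ventricle: Fos, Fosb, Jun, Junb, Atf3, Egr1, Nr4a1, Myc, Ier2 and Ier3. They were chosen by name, as all probe sets of the array that map to exactly 1 of these symbols, which gave 11 probe sets (Jun has 2) for 10 of the 18193 genes measured. No probe set was shared between a member and another gene. Of the 10 members, 8 passed the filter on dim genes and were among the 10916 genes tested, while Fosb and Myc fell below it and are described by their signals. RNA of the left ventricle was hybridised to Affymetrix 430 2.0 arrays in 4 groups of 4 arrays each. The groups were PPARalpha-/- mice after transverse aortic constriction (KO TAC), PPARalpha-/- mice after a sham operation (KO sham), wild-type mice after constriction (WT TAC) and wild-type mice after a sham operation (WT sham), all examined at 28 days. Constriction narrows the aorta and loads the left ventricle with pressure, and PPARalpha is the nuclear receptor that controls genes of fatty acid use. Strain, age and sex of the mice are not given in the labels, and neither is how the allele was made or whether each array is a separate mouse. The p-values below therefore measure only the spread between these arrays, which may be technical.

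Immediate early genes are switched on within minutes of a stimulus, without new protein synthesis, by kinases that act on factors such as SRF, Elk and CREB already bound at their promoters. Their transcripts are short lived. In the heart they are known for an early, brief response to stretch, hormones and pressure load. Fos, Fosb, Jun, Junb and Atf3 encode bZIP proteins that pair with each other as AP-1 and related dimers. Egr1 is a zinc finger factor, Nr4a1 an orphan nuclear receptor, Myc a bHLH factor of cell growth, and Ier2 and Ier3 are small response proteins, of which Ier3 is known for effects on cell survival.

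Promoter sequences were held in the RefSeq table of build GRCm38.p6 for 7 of the 10 members. Ier2, Myc and Egr1 are named only. Those of Junb, Fos and Nr4a1 are shown because Junb passed the test between genotypes under load, Fos varied most widely of the tested members within each wild-type group and Nr4a1 has the densest set of the searched motifs. Each runs 5′ to 3′ on the gene's strand, from 250 bases before the transcription start to 50 bases after it. Capitals mark the CRE core TGACG or its reverse complement CGTCA, to which CREB and ATF proteins bind, and the Egr site GCGGGGGCG or its reverse complement CGCCCCCGC.
Junb, chr8:84978699-84978998, minus strand: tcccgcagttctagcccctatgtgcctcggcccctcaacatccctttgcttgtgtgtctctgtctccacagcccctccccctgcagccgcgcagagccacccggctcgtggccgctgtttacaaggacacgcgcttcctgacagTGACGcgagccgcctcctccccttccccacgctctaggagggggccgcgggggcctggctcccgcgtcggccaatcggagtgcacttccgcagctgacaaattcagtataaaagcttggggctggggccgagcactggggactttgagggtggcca
Fos, chr12:85473640-85473939, plus strand: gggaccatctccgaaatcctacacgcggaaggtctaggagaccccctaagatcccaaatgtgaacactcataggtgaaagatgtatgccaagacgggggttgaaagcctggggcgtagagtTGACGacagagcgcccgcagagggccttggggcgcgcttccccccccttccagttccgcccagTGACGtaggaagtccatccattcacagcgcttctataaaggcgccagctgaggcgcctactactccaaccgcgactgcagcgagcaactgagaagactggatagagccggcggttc
Nr4a1, chr15:101266596-101266895, plus strand: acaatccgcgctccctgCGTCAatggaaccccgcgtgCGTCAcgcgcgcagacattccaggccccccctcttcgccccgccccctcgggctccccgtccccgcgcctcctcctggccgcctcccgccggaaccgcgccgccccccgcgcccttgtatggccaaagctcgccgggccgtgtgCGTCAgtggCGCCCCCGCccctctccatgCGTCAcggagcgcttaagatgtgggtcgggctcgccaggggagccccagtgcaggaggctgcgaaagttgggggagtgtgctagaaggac
In the Junb promoter the core began 106 bases before the start. In the Fos promoter the cores began 129 and 66 bases before it. The Nr4a1 promoter held 4 cores, all on the opposite strand, beginning 233, 213, 69 and 40 bases before the start, with an Egr site beginning 60 bases before it. Over both strands, 5 of the 7 member promoters held TGACG, against 20.8% of 32851 promoters of the same length in the table, and 2 of 7 (Fosb and Nr4a1) held the Egr site, against 2.91%. The full CRE TGACGTCA, which contains the core, was in 0 of 7 member promoters and 1.79% of all. The AP-1 site TGANTCA was in 0 of 7 and 7.81% of all, and the SRF-binding CArG box in 0 of 7 and 1.63% of all. These matches describe letters in this window only.

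The deposited signals are linear intensities that the authors scaled to a common mean, and the fold changes below are differences of log2 signals between group means. Array medians ran from 108.3 to 163. WT TAC replicate 3 stood apart, with the highest median and the highest spike-in signal. The mean log2 signal of the 9 hybridisation spike-in probe sets was 12.00 to 12.68 on KO TAC arrays, 12.40 to 12.90 on KO sham arrays, 12.62 to 13.04 on WT TAC arrays and 12.34 to 12.63 on WT sham arrays. Ppara itself was lower in both knockout groups, at -1.92 ± 0.17 in KO TAC against WT TAC (SE, adjusted p = 1.18e-05) and -1.70 ± 0.17 in KO sham against WT sham (adjusted p = 5.71e-05), on the log2 scale. Nppa, the natriuretic peptide gene that marks a loaded ventricle, was higher in KO TAC than in KO sham by 1.24 ± 0.16 (adjusted p = 0.000659). In WT TAC against WT sham its difference of 1.03 ± 0.16 missed the threshold (adjusted p = 0.107). By limma, Nppa (0.67 ± 0.16, adjusted p = 0.0356) and Myh7 (2.31 ± 0.41, adjusted p = 0.00853) were higher in KO TAC than in WT TAC. They were called there in 17 and 29 of 31 alternative settings. The load markers Nppb (0.03) and Acta1 (0.41) were not called (adjusted p of 0.96 and 0.541). Against KO sham, KO TAC was higher in Acta1 (1.78, adjusted p = 0.00564). Nppb (0.43) and Myh7 (1.27) were not called there (adjusted p of 0.194 and 0.132). All 8 cardiomyocyte markers were above the filter on dim genes. Because the arrays hold whole tissue, fewer cells of a type and less RNA per cell cannot be told apart.

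**Figure D1:**
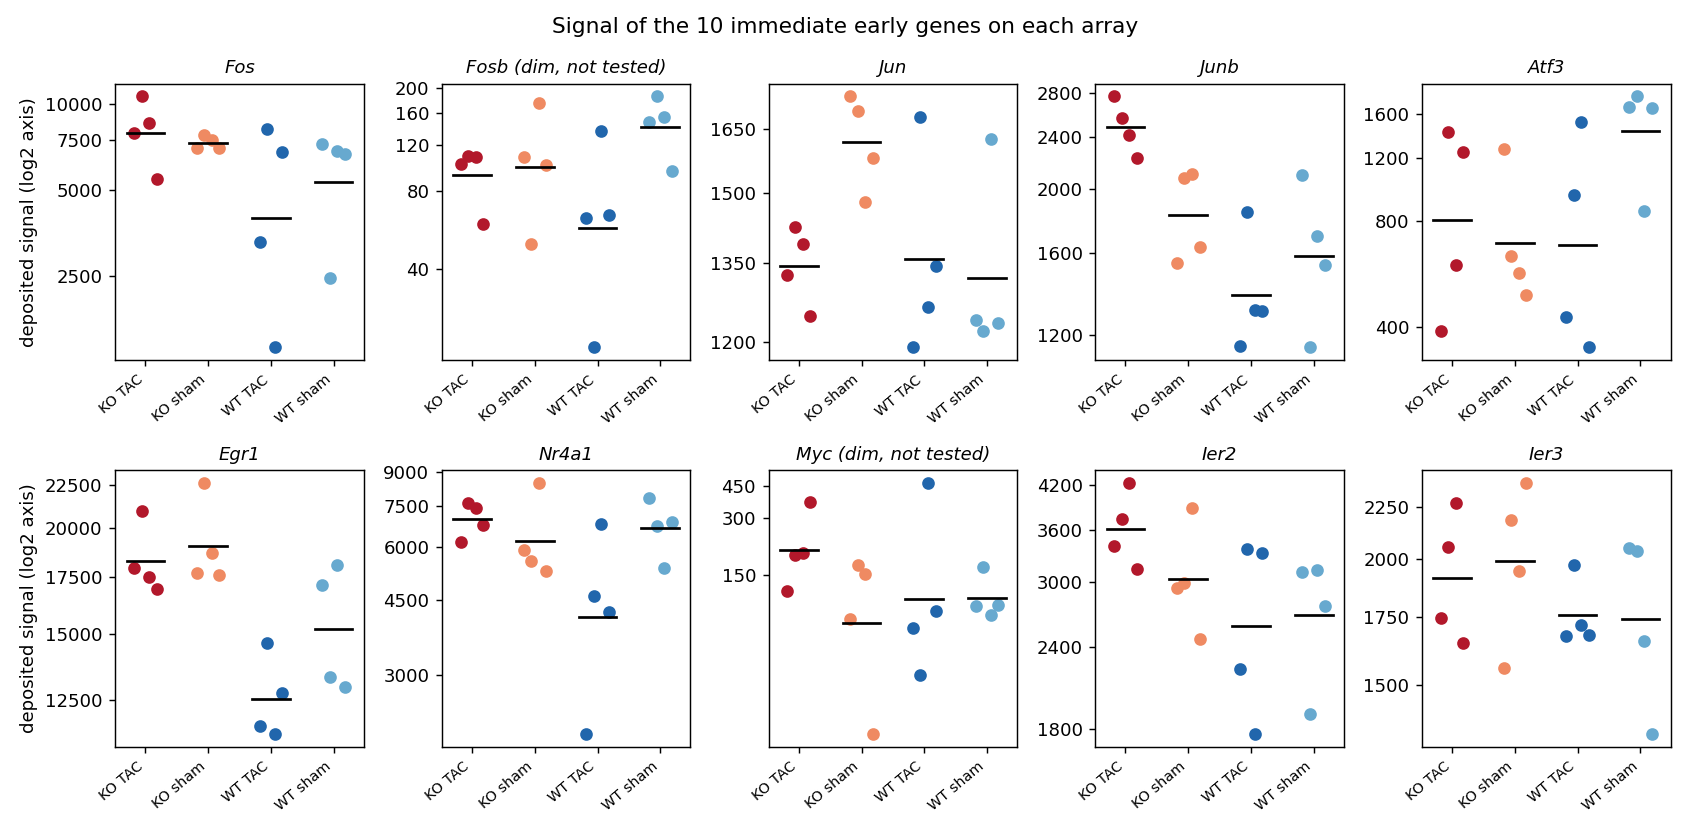
Deposited signal of each gene on each of the 16 arrays, on a log2 axis, by group (4 arrays each); bars mark group means of log2 signal. Junb and Egr1 show KO TAC arrays above every WT TAC array, while Fos on WT TAC arrays spreads from 1398.1 to 8208.

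Under pressure load, Junb and Egr1 were higher in the knockout hearts. KO TAC against WT TAC, the genotype comparison under load, called 2 of the 8 tested members, both higher, where 2.46% of all tested genes were called in either direction. The same 2 of 8 had arrays of the groups that did not overlap, where 9.55% of all tested genes did. The median log2 difference over the 8 was 0.51, against 0.03 over all genes tested, and 7 of 8 were positive, against 54.5% of all genes. The members share the same arrays, so these are not 8 separate observations.

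Among the AP-1 members, Junb, which in AP-1 dimers often restrains Jun, had signals of 2770.5, 2566.3, 2416.1 and 2234.3 on KO TAC arrays, against 1158.1, 1847.2, 1310.5 and 1306.2 on WT TAC arrays. All 4 KO TAC arrays lay above all 4 WT TAC arrays. The log2 difference was 0.85 ± 0.18 (SE, 1.80-fold; limma, adjusted p = 0.0258), with a 95% interval of 0.46 to 1.24. Fos, the usual dimer partner of Jun, had 7938.4, 10657.6, 8550 and 5452.5 on KO TAC arrays, against 3266.8, 8208, 1398.1 and 6798 on WT TAC arrays. The groups overlapped, and WT TAC replicates 1 and 3 were far below the other arrays. Its difference of 0.99 ± 0.47 missed the threshold (adjusted p = 0.307). Leaving out the 3 arrays most extreme in spike-in signal (KO TAC replicates 2 and 3, WT TAC replicate 3) gave 0.21. Jun had 1248.3 to 1424.7 on KO TAC arrays and 1191.1 to 1679.5 on WT TAC arrays, a difference of -0.01 with a 95% interval of -0.28 to 0.25. Its second probe set gave 0.34 ± 0.24 and was not called in a fit of all probe sets (adjusted p = 0.668). Atf3, a stress-induced repressor of the ATF family, had 389.3 to 1425.1 on KO TAC arrays and 350.4 to 1519.5 on WT TAC arrays. Both groups spanned nearly the same range, and the difference of 0.24 ± 0.50 was not called (adjusted p = 0.855). Fosb, a relative of Fos and below the filter on dim genes, had 59.6 to 109 on KO TAC arrays and 19.9 to 136.7 on WT TAC arrays.

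Egr1, which switches on growth and matrix genes, had signals of 17964.4, 20954.5, 17502.8 and 16961.1 on KO TAC arrays, against 11663.8, 14626.8, 11390.7 and 12736.3 on WT TAC arrays. Every KO TAC array was above every WT TAC array. The log2 difference was 0.54 ± 0.14 (SE, 1.46-fold; limma, adjusted p = 0.0477), with a 95% interval of 0.26 to 0.83. Nr4a1 had 6153.6, 7630.1, 7417.7 and 6770.4 on KO TAC arrays, against 2175.3, 4610.4, 6779.1 and 4219 on WT TAC arrays. Only WT TAC replicate 3 reached the level of the KO TAC arrays. The difference was 0.76 ± 0.26 (adjusted p = 0.162). It passed the threshold in 1 of 31 alternative settings, the fit without WT TAC replicate 3 (1.00, adjusted p = 0.0442). Because that array is the one that overlapped, its removal is no separate support. The lowest value, 0.45, came without WT TAC replicate 1. Ier2 had 3139.1 to 4236.2 on KO TAC arrays and 1769.7 to 3371.4 on WT TAC arrays, a difference of 0.49 ± 0.22 (adjusted p = 0.286). Ier3 had 1650.5 to 2269.8 on KO TAC arrays and 1675.9 to 1972.6 on WT TAC arrays, a difference of 0.12 ± 0.16 (adjusted p = 0.759). Myc, also below the filter, had 123 to 366.7 on KO TAC arrays and 43.5 to 464.8 on WT TAC arrays.

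Junb and Egr1 did not pass the threshold in every fit, among them fits without single arrays and a fit with a term for the spike-in signal. The median of that signal was 12.32 on KO TAC arrays and 12.80 on WT TAC arrays. Junb was called in 19 and Egr1 in 10 of the 31 alternative settings, with the sign kept in all 31. Junb lost its call without WT TAC replicate 1, 3 or 4 or KO TAC replicate 1, 2 or 3 (adjusted p 0.0535 to 0.0757). Egr1 lost it without WT TAC replicate 1, 3 or 4, any 1 KO TAC array, KO sham replicate 1, 3 or 4, or 1 of WT sham replicates 1 and 2, with adjusted p-values of 0.054 to 0.157. Without a sham array, the Egr1 difference itself stayed at 0.54. In a model that also held each array's mean spike-in signal, Junb was at 0.78 (adjusted p = 0.287) and Egr1 at 0.50 (adjusted p = 0.38). Without that term they were at 0.85 and 0.54. Why the calls were lost was not tested.

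Markers of other cells moved in the same comparison. Of all tested genes, 2.46% were called in either direction and 54.5% were positive. Of the fibroblast markers, 3 of 8 were called higher in KO TAC and 6 of 8 were positive. Their summed signal was 62806.5 to 71237.6 on KO TAC arrays and 45838.5 to 60003.4 on WT TAC arrays. Of the macrophage markers, 3 of 8 were called higher and all 8 were positive, with sums of 21802 to 27376.2 on KO TAC arrays and 15557 to 19470.1 on WT TAC arrays. The 1 tested red blood cell marker was called higher too, with list sums of 921.9 to 1068.4 on KO TAC arrays and 371.3 to 871.4 on WT TAC arrays. None of the 8 cardiomyocyte markers was called, with sums of 402943 to 510886 on KO TAC arrays and 526112 to 718618 on WT TAC arrays. All 3 tested atrial markers were positive and uncalled, with list sums of 1096.3 to 5600.1 on KO TAC arrays and 462.4 to 2294.7 on WT TAC arrays. The part of these cells in the Junb and Egr1 results was not tested.

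**Figure D2:**
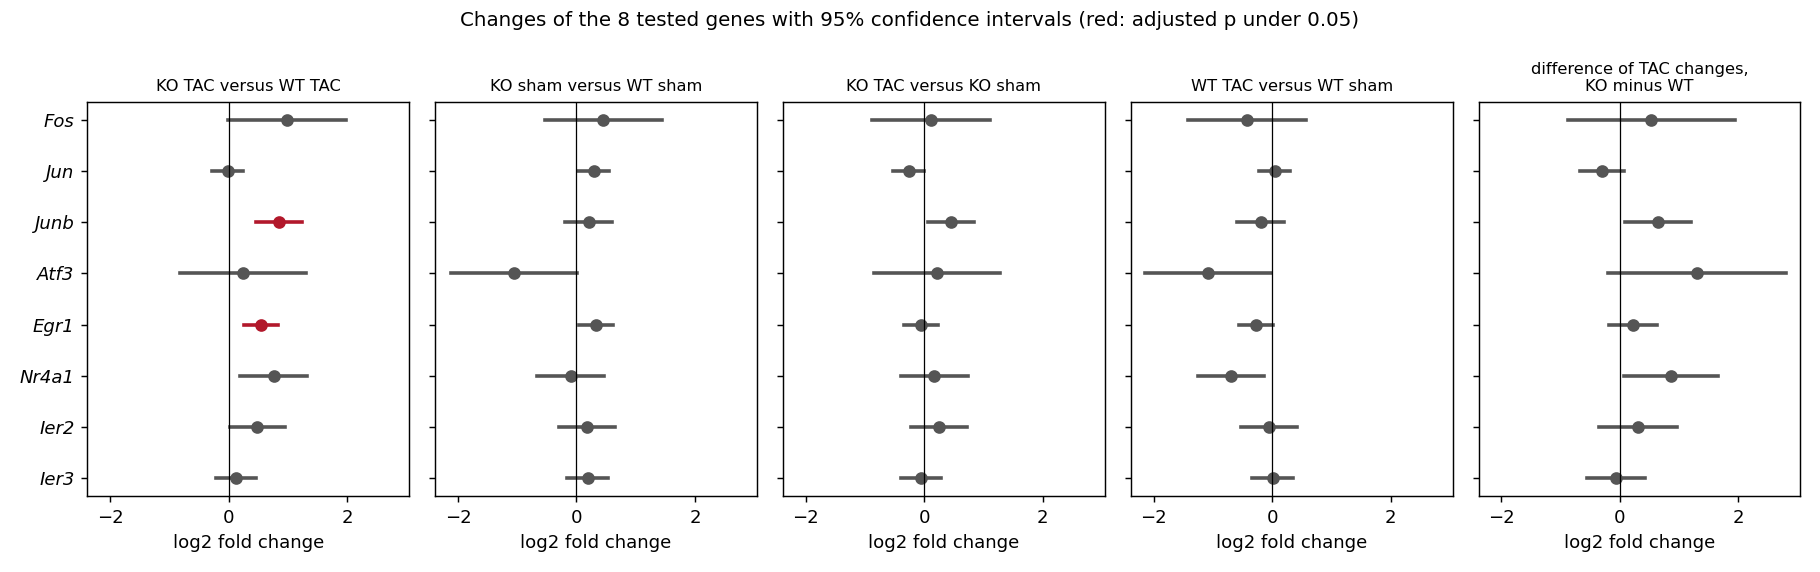
Log2 difference of each tested member in each comparison, with its 95% interval from the limma fit (red: adjusted p under 0.05). Junb (0.85) and Egr1 (0.54) in KO TAC against WT TAC are the 2 that did.

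Without load, no member differed between the genotypes beyond the threshold. KO sham against WT sham called 0 of 8 members, where 0.742% of all genes were called, and 0 of 8 had groups that did not overlap, where 5.91% did. By limma at an unadjusted p under 0.05, 2 of 8 members passed, against 8.52% of all genes. Egr1 had 17698.9, 22643.3, 18711.2 and 17597.3 on KO sham arrays, against 17124.5, 13330.1, 18075.1 and 12946.4 on WT sham arrays, a difference of 0.33 ± 0.14 (adjusted p = 0.487). WT sham replicate 3 lay within the KO sham range and the other WT sham arrays below it. Jun had 1480.5 to 1732.3 on KO sham arrays and 1221.2 to 1624 on WT sham arrays, a difference of 0.29 ± 0.12 (adjusted p = 0.491). Its second probe set gave 0.26 ± 0.24 and was not called in the fit of all probe sets (adjusted p = 0.966). Atf3 had 1276.1, 635.7, 567.7 and 492.4 on KO sham arrays, against 1671.2, 1797.4, 852.3 and 1659.4 on WT sham arrays. Its difference of -1.06 ± 0.50 was not called (adjusted p = 0.589). KO sham replicate 1 lay above WT sham replicate 3, and the other arrays of the groups did not overlap. Fos had 7035.4, 7801.4, 7466 and 7021.3 on KO sham arrays, against 7244.2, 2441.7, 6862.6 and 6704 on WT sham arrays, a difference of 0.46 ± 0.47 (adjusted p = 0.866). The KO sham arrays were close together, and WT sham replicate 2 lay far below the other WT sham arrays. Nr4a1 had 5277.5 to 8489.8 on KO sham arrays and 5358.4 to 7845 on WT sham arrays, a difference of -0.10 with a 95% interval of -0.66 to 0.46. Junb (0.21), Ier2 (0.18) and Ier3 (0.19) had adjusted p-values of 0.825 to 0.892. In the fit of all probe sets, the dim Fosb (-0.52) and Myc (-0.44) were not called (adjusted p of 0.971 and 0.985). Macrophage markers had sums of 20488.2 to 22312.4 on KO sham arrays and 15867 to 18301.6 on WT sham arrays. Of the 8, 0 were called and 7 were positive, against 54.4% of all genes positive. Atrial markers had list sums of 1379.7 to 26679.9 on KO sham arrays and 474.1 to 8452.4 on WT sham arrays. All 3 tested were positive and uncalled. The part of these cells was not tested.

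In wild-type hearts, 28 days of constriction left no member past the threshold. WT TAC against WT sham called 0 of 8 members and 0% of all genes, and 0 of 8 members had groups that did not overlap, against 4.28% of all genes. At an unadjusted p under 0.05 by limma, 2 of 8 members and 7.62% of all genes passed. Those 2 were Nr4a1 and Atf3. Nr4a1 had 2175.3 to 6779.1 on WT TAC arrays and 5358.4 to 7845 on WT sham arrays, a difference of -0.69 ± 0.26 (adjusted p = 0.62). Atf3 had 350.4 to 1519.5 on WT TAC arrays and 852.3 to 1797.4 on WT sham arrays, a difference of -1.08 ± 0.50 (adjusted p = 0.652). Fos differed by -0.42, Egr1 by -0.28, Junb by -0.20, Ier2 by -0.05, Jun by 0.04 and Ier3 by 0.01. Jun's second probe set gave -0.27 ± 0.24 and was not called in the fit of all probe sets (adjusted p = 0.914). In the fit of all probe sets, the dim Fosb had 19.9 to 136.7 on WT TAC arrays and 95.7 to 186 on WT sham arrays, a difference of -1.30 ± 0.50 that was not called (adjusted p = 0.786). The median over the 8 was -0.24, against 0.00 over all genes. Atrial markers had list sums of 462.4 to 2294.7 on WT TAC arrays and 474.1 to 8452.4 on WT sham arrays. This comparison and the genotype comparison under load share the WT TAC arrays, so their values are not independent.

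In knockout hearts, no member passed the threshold after constriction. KO TAC against KO sham called 0 of 8 members, where 2.57% of all genes were called, and 2 of 8 members had groups that did not overlap, where 10.8% did. By limma at an unadjusted p under 0.05, 2 of 8 members passed, against 16% of all genes. Junb had 1546.4, 2084.1, 2112.4 and 1635.6 on KO sham arrays, all below the KO TAC arrays given above, a difference of 0.45 ± 0.18 (adjusted p = 0.238). Jun had 1327.5, 1424.7, 1389.2 and 1248.3 on KO TAC arrays, all below the 1732.3, 1693.6, 1480.5 and 1580.3 of KO sham arrays, a difference of -0.27 ± 0.12 (adjusted p = 0.304). Jun's second probe set overlapped, with 968.3 to 1462.7 on KO TAC arrays and 1286.7 to 1545.9 on KO sham arrays, and gave -0.19 ± 0.24. The ratio of 3' to 5' actin signal, a sign of RNA quality, also separated these groups, at 1.18 to 1.36 on KO TAC arrays and 1.52 to 1.75 on KO sham arrays. It was 1.28 to 1.53 on WT TAC arrays and 1.47 to 1.56 on WT sham arrays, and its part in the results was not tested. The same ratio for Gapdh overlapped between KO TAC (0.765 to 0.789) and KO sham arrays (0.738 to 0.769). Ier2 (0.25), Atf3 (0.22), Nr4a1 (0.17), Fos (0.11), Egr1 (-0.06) and Ier3 (-0.06) had adjusted p-values of 0.647 to 0.951. In the fit of all probe sets, the dim Myc (1.30 ± 0.72) and Fosb (-0.11 ± 0.50) were not called (adjusted p of 0.65 and 0.982). Atrial markers had list sums of 1096.3 to 5600.1 on KO TAC arrays and 1379.7 to 26679.9 on KO sham arrays. Of the 3 tested, 0 were called, with a median log2 difference of -1.35, and their part in the results was not tested.

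The change with constriction was set against itself across genotypes as an interaction, the KO change minus the WT change. It called 0 of 8 members and 0% of all genes, and at an unadjusted p under 0.05 by limma it passed 2 of 8 members and 10.3% of all genes. Those 2 were Nr4a1, at 0.86 ± 0.37 (adjusted p = 0.46), and Junb, at 0.64 ± 0.26 (adjusted p = 0.434). Jun was at -0.31 (adjusted p = 0.562) and its second probe set, in the fit of all probe sets, at 0.08 (adjusted p = 0.976). Atf3 had the largest value of the 8, 1.30 ± 0.71, with a 95% interval of -0.21 to 2.80. The higher Junb and Egr1 of the loaded knockout are therefore not shown to be a different response to load.

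Among the 8 tested members, arrays of one group differed most for Atf3 and Fos. The dim Myc and Fosb spread as widely, with group SDs of log2 signal of 0.38 to 1.46 for Myc and 0.41 to 1.15 for Fosb. The residual SD of log2 signal within groups was 0.77 for Atf3 and 0.72 for Fos, above 96.03% and 94.96% of tested genes, whose median was 0.25. It was 0.40 for Nr4a1, 0.33 for Ier2, 0.27 for Junb, 0.23 for Ier3, 0.18 for Egr1 and 0.16 for Jun. The highest Fos signal was 1.95 times the lowest on KO TAC arrays, 1.11 times on KO sham arrays, 5.87 times on WT TAC arrays and 2.97 times on WT sham arrays. WT TAC was the widest group for 5 members and WT sham for 3, where WT TAC was the widest for 34.4% and WT sham for 19.2% of all genes.

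**Figure D3:**
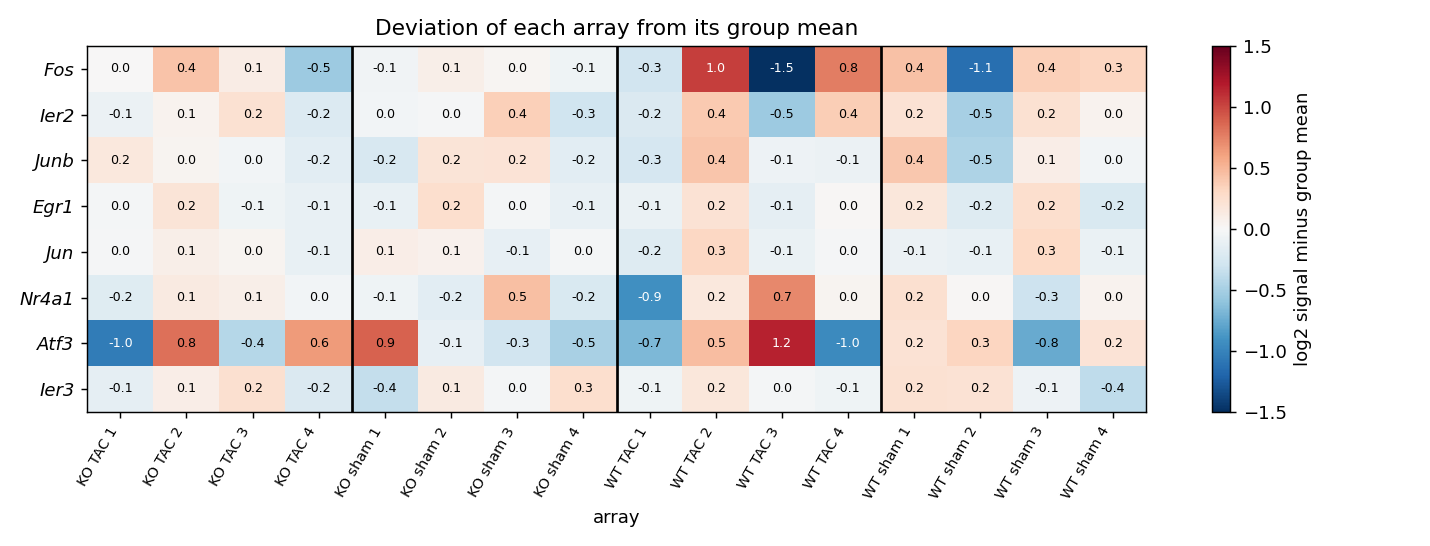
Deviation of each member's log2 signal from its group mean on each array. Fos ranges from -1.51 on WT TAC replicate 3 to 1.04 on WT TAC replicate 2, and Ier2 follows it in sign on those arrays.

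Within groups, Fos and Ier2 went up and down on the same arrays. Over the 16 arrays, deviations from group means correlated at r = 0.88 (Spearman 0.89), and at 0.76 without WT sham replicate 2 and WT TAC replicate 3, which were farthest out in Fos. The correlation was 0.98 over the wild-type arrays and 0.46 over the knockout arrays. Junb with Egr1 gave 0.73, Jun with Egr1 0.69, Junb with Ier2 0.67, Fos with Junb 0.62 and Fos with Egr1 0.61. Nr4a1 with Atf3 gave 0.53 over all arrays, 0.16 over the knockout arrays and 0.75 over the wild-type arrays. Nr4a1 with Fos gave -0.16 (Spearman 0.25), and Ier3 with Fos gave 0.05 (Spearman 0.11). Without WT sham replicate 2 and WT TAC replicate 3 these were 0.42 for Nr4a1 and 0.29 for Ier3. Of the 28 pairs, 9 were over 0.5, a share of 32.1% against 5.54% of pairs of all tested genes. These points share the arrays, their scaling and their labelling, and the correlations are a description without test.

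**Figure D4:**
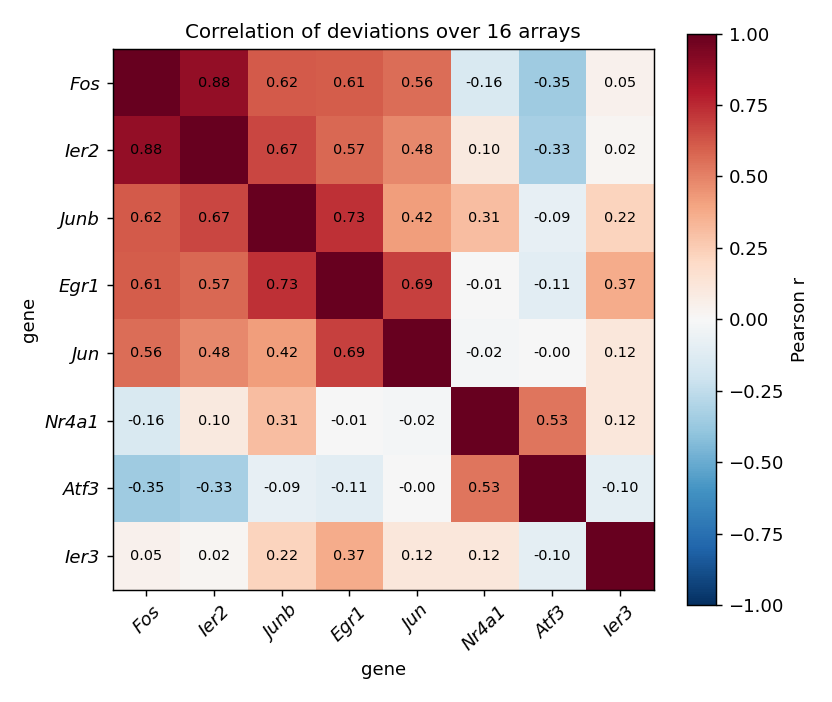
Pearson correlation, over 16 arrays, of the deviations from group means for each pair of tested members. Fos, Ier2, Junb, Egr1 and Jun form a block with values of 0.42 to 0.88.

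The 10 genes outside the members whose deviations were most like the members' mean had r of 0.75 to 0.84 over 16 arrays: Zdhhc9, Dusp1, Mcts2, 1110032A03Rik, Sdf4, Pcbp1, Gatb, Armc6, Rbl2 and Hif1an. They were picked for that likeness. With probe sets averaged, 6 of them had r of -0.12 to 0.25, while Dusp1 stayed at 0.85, Mcts2 at 0.80, Pcbp1 at 0.74 and Rbl2 at 0.57. Of them only Dusp1, the phosphatase that switches off MAP kinases, is on the lists of rapidly induced genes used here. Its deviations correlated at 0.81 with Fos, 0.75 with Ier2, 0.67 with Junb and 0.04 with Atf3. Its signal was 17030.9 to 21224.1 on KO TAC arrays, 19676.3 to 21750.8 on KO sham arrays, 13396 to 19653.1 on WT TAC arrays and 14135.6 to 18345.3 on WT sham arrays.

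Other genes of the same pathway were taken from 4 lists of 99 genes, of which 84 were tested. In KO TAC against WT TAC, 3 were higher and 1 was lower, all of the list of other rapidly induced genes (4 of 40 tested, median 0.31 against 0.03 over all genes). They made up 4.76% of the 84, where 2.46% of all genes were called. At an unadjusted p under 0.05 by limma, 28 of 84 (33.3%) passed, against 16.4% of all genes. Hbegf, a growth factor of the EGF family, had 2247.6, 3330.4, 2822.4 and 3331.4 on KO TAC arrays, against 1599.2, 1596.3, 1479.6 and 1100.1 on WT TAC arrays. The groups did not overlap, and the difference was 1.02 ± 0.19 (adjusted p = 0.00975). Per1, a clock gene, was higher by 0.70 ± 0.16 (adjusted p = 0.0336), and Mafk, a small Maf protein, by 0.48 ± 0.11 (adjusted p = 0.0356). Rgs2, which turns down G-protein signals, was lower, at -0.91 ± 0.21 (adjusted p = 0.0325). Egr2, the relative of Egr1, had 1766.7, 2621.7, 2782.9 and 2163.2 on KO TAC arrays and 592.6, 1351.7, 1847.7 and 905.1 on WT TAC arrays. Its difference of 1.09 ± 0.32 was not called (adjusted p = 0.0944). It passed in 5 of the 31 alternative settings, among them the fit without WT TAC replicate 3 (adjusted p = 0.0346). Hbegf was called in 28 of the 31 alternative settings, Rgs2 in 19, Per1 in 18 and Mafk in 15. A term for the spike-in signal ended all 4 calls (adjusted p = 0.127 for Hbegf, 0.476 for Rgs2, 0.083 for Per1 and 0.0829 for Mafk), and so did leaving out the 3 arrays most extreme in it (0.163, 0.293, 0.0994 and 0.124 for the same genes). With that term the log2 differences were 1.01 for Hbegf, -0.58 for Rgs2, 0.89 for Per1 and 0.61 for Mafk. Without those 3 arrays they were 0.96, -0.72, 0.81 and 0.57. Hbegf also lost its call with every probe set fitted separately (adjusted p = 0.0669) but with no single array left out. Leaving out single arrays ended the call of Mafk for WT sham replicate 2, WT TAC replicates 1, 2 and 4 and each KO TAC array (adjusted p 0.0509 to 0.102). Per1 lost its call without WT TAC replicate 1, 2 or 4 or KO TAC replicate 1, 3 or 4 (adjusted p 0.0538 to 0.109), and Rgs2 without WT TAC replicate 2, 3 or 4 or KO TAC replicate 1 or 2 (adjusted p 0.0503 to 0.102).

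In KO TAC against KO sham, 4 of the 84 were higher and 1 lower, a share of 5.95% where 2.57% of all genes were called. At an unadjusted p under 0.05 by limma, 24 of 84 (28.6%) passed, against 16% of all genes. Ccn2, a matrix protein also known as connective tissue growth factor, had 7279.3, 13594.4, 10542.3 and 11762.2 on KO TAC arrays, against 3645.8, 2922.5, 2804.6 and 3052.1 on KO sham arrays. Every KO TAC array lay far above the KO sham arrays, and the difference of 1.77 ± 0.27 was called (adjusted p = 0.00287) in all 31 alternative settings. Hbegf was higher by 0.89 ± 0.19 (adjusted p = 0.0203), Mafk by 0.56 ± 0.11 (adjusted p = 0.0163) and Dusp6, a phosphatase of ERK, by 0.86 ± 0.20 (adjusted p = 0.0323). Herpud1, a gene of the endoplasmic reticulum stress response, was lower, at -0.62 ± 0.15 (adjusted p = 0.0432). Mafk was called in 25 of the 31 settings, Hbegf in 22, Dusp6 in 19 and Herpud1 in 11. A term for the spike-in signal ended the calls of Hbegf (adjusted p = 0.0856), Dusp6 (0.161) and Herpud1 (0.21). With that term their log2 differences were 0.88, 0.72 and -0.50. Without the 3 arrays most extreme in spike-in signal, Ccn2 was the 1 of the 5 still called. The others were then at 0.81 (Hbegf), 0.58 (Mafk), 0.67 (Dusp6) and -0.44 (Herpud1). Single arrays left out ended the call of Hbegf (KO TAC replicates 2, 3 and 4, KO sham replicates 2 and 3, adjusted p 0.0509 to 0.0751) and of Mafk (KO TAC replicate 2, KO sham replicate 3, adjusted p 0.052 to 0.0551). They ended that of Dusp6 (KO TAC replicates 2, 3 and 4, KO sham replicates 1, 2 and 4, adjusted p 0.0602 to 0.105). Herpud1 lost its call in 12 of 16 such fits, all but those without KO TAC replicate 1, KO sham replicate 1 and WT TAC replicates 3 and 4 (adjusted p 0.053 to 0.124). In the same comparison 3 of 8 fibroblast markers were called higher and 6 were positive, where 2.57% of all genes were called. Their sums were 62806.5 to 71237.6 on KO TAC arrays and 44468.5 to 52560.2 on KO sham arrays, and their part in these results was not tested. In KO sham against WT sham, 1 of 84 (1.19%) was called, where 0.742% of all genes were. At an unadjusted p under 0.05 by limma, 12 of 84 (14.3%) passed, against 8.52% of all genes. The 1 called was Nr4a3, a relative of Nr4a1, at -1.29 ± 0.25 (adjusted p = 0.0197), but it was at 0.087 with its probe sets averaged. Its call was also lost without KO sham replicate 1, 2 or 4 or WT sham replicate 1 or 3 (adjusted p 0.0531 to 0.0722). By limma, 0 of 84 were called in WT TAC against WT sham and in the interaction, where 11 (13.1%) and 17 (20.2%) had an unadjusted p under 0.05, against 7.62% and 10.3% of all genes. Of the upstream kinases and factors, such as Srf and Map2k1, 19 of 26 were tested and 0 were called in any of the 5 comparisons, with 1 to 6 of 19 (5.26% to 31.6%) at an unadjusted p under 0.05, against 7.62% to 16.4% of all genes. Of the 11 stress-response partners of Atf3, all tested, Herpud1 was the 1 called.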

How the data were processed

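Gene expression in the left ventricle was measured on 16 arrays, 4 per group, grouped by the sample titles. The submitters' processing notes name GCOS 1.4, and the values deposited are a linear intensity per probe set from biotin-labelled total RNA, per the labels' protocols. The trimmed mean was 500 on every array. How GCOS was set is not given in the sources used here. Because each array was scaled to that mean, bright genes that change together shift all others in the opposite direction. The number of arrays limits the precision.

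A floor of 11.9 (percentile 10 of the whole table) was set before log2. Of 45101 probe sets, 64 were controls, 34945 had 1 gene, 932 several and 9160 none in the array annotation, and 34741 were matched by gene ID to a RefSeq table of GRCm38.p6. Each gene was represented by its probe set of highest mean log2 signal, and the dimmest 40% of genes were dropped. The model, limma 3.58.1 (R 4.3.3), had 1 mean per group over the 16 arrays. Genes were called at a two-sided Benjamini-Hochberg adjusted p under 0.05 over 10916 genes, and the steps were tested on simulated data. Fosb, Myc and the second Jun probe set come from a fit of 45037 probe sets.

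The members, the lists of related genes and the marker lists were chosen with earlier results of these data known. All members were named. Of each related list, called genes were named up to 6 per comparison, or the 3 of smallest p where fewer than 3 were called, of which the text gives a part. The 10 genes most like the members were chosen by correlation. The labels state no pairing by replicate number. The 24 same-number pairs correlated at -0.19 to 0.14, 5 were over 0.1, and 7 of 16 arrays matched best with their own number. These values do not settle whether arrays were paired. No 2 arrays held identical values. Alternatives were quantile normalization, centring on medians, another floor or none, no filter or a 60% filter, probe sets separately, averaged or without _x_at and _s_at suffixes, limma's trend and robust options, weights per array, a fit of the compared groups alone, a block for replicate number, leaving out the 3 arrays most extreme in spike-in signal, a term for that signal, and leaving out each array.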

Additional observations from a re-analysis of the deposited data

Results flagged for a closer look

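Of 44 sets of 4 arrays (each member probe set in each group), 5 held a lowest or highest array that passed Dixon's 95% critical value. The measure was its gap in log2 signal to its nearest neighbour, over the whole log2 range of the set. The signals below are linear. Chance gives about 1 set in 20. Fos was 2441.7 in WT sham replicate 2, below the other WT sham arrays. Fosb was 59.6 in KO TAC replicate 4, below the other KO TAC arrays. Jun was 1624 in WT sham replicate 3, above the other WT sham arrays. Atf3 was 852.3 in WT sham replicate 3, below the other WT sham arrays. Ier3 was 1972.6 in WT TAC replicate 2, above the other WT TAC arrays.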

How the results depend on the processing

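In KO TAC against WT TAC, the count of members called, 2 as reported, was 1 with centring on medians, averaged probe sets or array weights (Junb in each). It was 0 without a filter, with every probe set separately, with the replicate number as a block, without the 3 arrays most extreme in spike-in signal, with a term for that signal and in a fit of the compared groups alone. Leaving out each array gave 0 to 2. With the replicate block Junb had an adjusted p of 0.0565 and Egr1 of 0.0711; the block changed no other member's call. In the other 4 comparisons 0 members were called under every alternative run. Of 1232 member values recomputed, 1198 stayed on their side of the threshold, 33 lost a call and 1 gained one. No called value changed sign, but 42 uncalled values did, in 15 of the 40 member results (8 genes in 5 comparisons). Fos in the interaction, 0.53 as reported, reached -0.36 with a term for the spike-in signal, and Ier2, 0.31 as reported, reached -0.30. Ier2 in WT TAC against WT sham turned in 7 of 31 alternatives, and Jun in KO TAC against WT TAC in 4 of 31. With averaged probe sets, Nr4a3 in KO sham against WT sham turned to 0.087. Of the 10 genes most like the members, 6 fell far under the same choice: Gatb to r = -0.12, Zdhhc9 to 0.13, 1110032A03Rik to 0.15, Hif1an to 0.17, Sdf4 to 0.19 and Armc6 to 0.25. The likeness and the Fos and Ier2 correlation were recomputed under alternatives chosen after seeing the data. Over the alternatives, all genes called numbered 63 to 424 in KO TAC against WT TAC (268 as reported), 55 to 426 in KO TAC against KO sham (280), 35 to 103 in KO sham against WT sham (81), 0 to 2 in WT TAC against WT sham (0) and 0 to 13 in the interaction (0). After centring on medians, the median over all genes was 0.22 in KO TAC against WT TAC, 0.13 in KO TAC against KO sham, -0.12 in WT TAC against WT sham and 0.25 in the interaction. The causes were not tested. Dim probe sets limit Fosb and Myc, whose signals lay near the floor on some arrays.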
